A study of Mus musculus with 3 samples.

Results

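The nuclear genes of oxidative phosphorylation are described here across cell classes of mouse lung. A gene was taken by its symbol: those starting with Ndufa, Ndufb, Ndufc, Ndufs, Ndufv, Uqcr, Cox4, Cox5, Cox6, Cox7, Cox8 or Atp5, and Sdha to Sdhd, without the Ndufaf assembly factors and without the paralogues Ndufa4l2 and Cox4i2. This gave 83 of the 27998 genes measured: 37 named for complex I, 4 for complex II, 8 for complex III, 17 for complex IV and 17 for complex V. The samples are 3 single-cell RNA libraries, 1 per group, made from lungs of FvB mice with the MMTV-HER2/Neu transgene, in which a mammary tumour virus promoter drives the Neu oncogene; all groups share this transgene and the removal of CD45-positive leukocytes by sorting. The early HER2-negative library (called HER2-negative below) holds cells sorted as HER2-, labelled non-cancer lung cells, and the early HER2-positive library (early) cells sorted as HER2+, labelled breast cancer cells, both from mice of 14 to 18 weeks with no palpable tumour. The late HER2-positive library (late) holds cells sorted and labelled like the early one, from mice over 20 weeks with primary tumours. The number of mice behind each library is not given in the sources used here.

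Oxidative phosphorylation is the last stage of respiration, in the inner mitochondrial membrane. Complexes I (NADH dehydrogenase) and II (succinate dehydrogenase) pass electrons to ubiquinone, complex III passes them to cytochrome c, complex IV (cytochrome c oxidase) passes them to oxygen, and complex V (ATP synthase) uses the proton gradient so made to form ATP. The core subunits of complexes I, III, IV and V that the mitochondrial genome encodes are joined by many nuclear-encoded ones, while complex II is wholly nuclear. Several complex IV subunits exist as tissue isoforms from separate genes, such as the heart and muscle forms Cox6a2, Cox7a1 and Cox8b. Ndufa4 carries a complex I name but is known as a complex IV subunit, and its paralogue Ndufa4l2 is known from hypoxic cells and pericytes. Alveolar type 2 (AT2) cells make surfactant, endothelial cells line vessels, and mural cells (pericytes and smooth muscle) wrap them. Neither Atp5s nor Atp5sl, which RefSeq now names Dmac2l and Dmac2, is a structural ATP synthase subunit, and they are members by prefix alone.

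Barcodes with at least 1000 unique molecular identifiers (UMIs, which count RNA molecules) and under 25% of UMIs from mitochondrial genes were kept: 6416 in the HER2-negative, 7622 in the early and 6012 in the late library, with 23039097, 44541222 and 51075059 UMIs. A barcode was put in a class by a marker rule (mammary, Csn3 and Wfdc18 at 1% of UMIs or more; AT2, Sftpc at 10% or more; endothelial, 2 or more UMIs of Cldn5 and Cdh5; mural, 2 or more of Higd1b and Myh11), and 17177 of the 20050 kept barcodes met exactly 1 rule. In that order of libraries, which is kept below wherever 3 values stand together, AT2 barcodes numbered 40, 3575 and 3909, endothelial 5166, 1462 and 463, and mural 210, 1287 and 907. Mammary barcodes numbered 158, all in the late library. No barcode of the early library, labelled as breast cancer cells, met the mammary rule, and most of its barcodes were AT2, endothelial or mural. Other cell types' transcripts were present in each class: the 9 AT2 markers summed to between 54.7 and 9444 counts-per-million units (CPM, a gene's summed count scaled to the total UMIs of its class and library) in endothelial and mural barcodes, lowest in the HER2-negative library, and to 6771 CPM in mammary barcodes against 271819 in AT2 barcodes of the same library. The 5 alveolar type 1 markers summed to 7041 CPM in mammary barcodes and 1469 CPM in late AT2 barcodes. Club markers reached 4704 CPM in late endothelial barcodes. In the HER2-negative library, erythroid markers reached 2131 CPM in endothelial and fibroblast markers 1688 CPM in mural barcodes. The part of other cell types' transcripts in the results was not tested. Pairs of libraries shared 10 to 19 barcode sequences. With 1 library per group, stage, age, animals and sort cannot be told apart from library, and intervals on single values are exact 95% intervals for counting error only.

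The start regions of the members were searched for binding motifs of factors known to drive nuclear genes of respiration, chief among them nuclear respiratory factor 1 (NRF1), factors of the ETS family and YY1. RefSeq windows on GRCm38.p6, from 250 bases before to 50 after each start, were found for 70 of the 83 members. The NRF1 letters GCGCANGCG, on either strand, were in the windows of 20 of these members (28.6%), against 7.03% of 27025 genes. The ETS letters CCGGAAG were in 16 members (22.9%, against 9.93% of genes), and the YY1 letters AANATGGCG in 11 (15.7%, against 2.76%). The GC box GGGCGG was in 41.4% of members and 38.2% of genes, and the cyclic AMP element TGACGTCA was in 4 members (5.71%, against 2.03%). By complex, the NRF1 letters were in 7 of 16 members of complex V, 8 of 33 of complex I and 1 of 13 of complex IV. None of the 5 motifs was found in 13 members (18.6%, against 55.2% of genes), among them Ndufa4, Atp5g1 and Cox7c. Each motif was searched on both strands and counted apart, so matches of different motifs may overlap. A match is a string of letters and not a measured site. The 120 bases before the start are shown for 6 members that the results below turn on, with motif matches in capitals: Ndufa4 (low in 1 kind of mural barcode), Atp5g1 and Uqcrfs1 (the highest ratios between mammary and AT2 barcodes), Atp5k and Ndufa1 (which differed between libraries in every class) and Sdhd (higher in the late library).
Ndufa4, chr6:11907451-11907570, minus strand: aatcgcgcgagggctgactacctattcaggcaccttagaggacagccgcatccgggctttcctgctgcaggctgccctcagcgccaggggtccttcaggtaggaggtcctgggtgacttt
Atp5g1, chr11:96075632-96075751, minus strand: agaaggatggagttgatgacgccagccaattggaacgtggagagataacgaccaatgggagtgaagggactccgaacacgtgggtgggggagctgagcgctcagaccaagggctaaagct
Uqcrfs1, chr13:30545317-30545436, minus strand: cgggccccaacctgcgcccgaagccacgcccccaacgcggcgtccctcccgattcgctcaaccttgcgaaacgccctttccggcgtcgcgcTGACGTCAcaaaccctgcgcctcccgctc
Atp5k, chr5:108434400-108434519, minus strand: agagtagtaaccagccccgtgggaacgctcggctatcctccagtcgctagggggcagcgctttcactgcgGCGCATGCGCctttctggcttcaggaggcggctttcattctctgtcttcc
Ndufa1, chrX:37191239-37191358, minus strand: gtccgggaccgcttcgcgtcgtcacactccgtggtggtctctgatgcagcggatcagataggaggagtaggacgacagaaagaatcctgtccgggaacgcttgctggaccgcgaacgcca
Sdhd, chr9:50603850-50603969, minus strand: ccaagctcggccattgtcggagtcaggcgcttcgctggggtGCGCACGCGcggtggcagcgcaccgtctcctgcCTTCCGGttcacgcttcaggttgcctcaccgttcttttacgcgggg
The capitals are a cyclic AMP element in Uqcrfs1, NRF1 letters in Atp5k, and NRF1 and ETS letters in Sdhd. The stretches of Ndufa4, Atp5g1 and Ndufa1 hold none of the 5.

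The members together took between 1.24% and 1.53% of all UMIs in the 3 lung classes and 3.21% in mammary barcodes, as the plot of shares by class shows. In AT2 barcodes the summed members were 1.24% of UMIs in the early library and 1.37% in the late. The 40 AT2 barcodes of the HER2-negative library gave 1.43%. In endothelial barcodes they were 1.53%, 1.41% and 1.52%, and in mural barcodes 1.53%, 1.41% and 1.498%. The early library was thus lowest in every class, and also in barcodes of 1 to 100 UMIs, which hold free RNA (1.68%, 1.38% and 1.55%). Without mitochondrial and class-defining genes in the total, the share was 1.78% and 1.95% in early and late AT2 barcodes, above the 1.52% and 1.64% of endothelial barcodes, so the order of AT2 and endothelial barcodes turned with the denominator. The mammary share was then 3.71%. In the 158 mammary barcodes the members were 3.21% of UMIs, with a median of 3.03% per barcode and quartiles of 2.65% and 3.70%. AT2 barcodes of the same library had a median of 1.35% and quartiles of 1.21% and 1.49%, so the middle ranges did not overlap. Complex I made up the most of the sum in mammary barcodes (1.03% of UMIs), then complex V (0.933%), complex IV (0.872%), complex III (0.332%) and complex II (0.0457%). That order held in endothelial, mural and AT2 barcodes of each library.

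**Figure D1:**
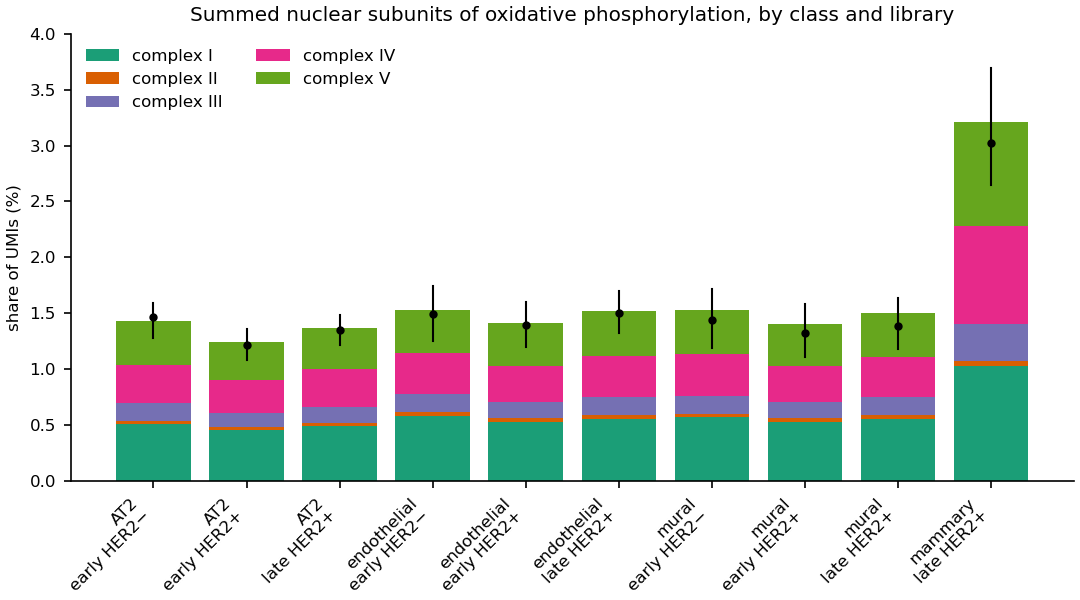
Share of UMIs (percent, vertical axis) from the 83 genes, stacked by complex, for each class and library. Dots and lines are the median and quartiles over barcodes. Mammary barcodes of the late library stand at 3.21%, and the early bar is the lowest of each lung class.

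The level of single members spanned a wide range. Over the 9 sums of a class in a library (without the 40 AT2 barcodes), 62 members had a mean of at least 100 CPM and 8 had a mean under 20 CPM. Of these 8, Cox8c and Cox7b2, testis isoforms, were at or near 0 everywhere (at most 0.0796 and 0.164 CPM). Cox8b, a heart and muscle isoform, reached 4.97 CPM, in mammary barcodes. The other 5 were Cox7a1, Cox6a2, Cox6b2, Atp5s and Atp5sl. The first 3 differed by class and are described next.

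Complex IV isoforms and Ndufa4 separated the lung classes most, as the plot of isoforms by class and library shows. Cox6a2, the heart and muscle form of subunit 6a, was at 43.1 and 60.2 CPM in early and late AT2 barcodes, and at 51.8 CPM in the 40 AT2 barcodes of the HER2-negative library. In endothelial barcodes it was at 1.38, 1.31 and 1.05 CPM, and in mural barcodes at 0, 1.43 and 0. Mammary barcodes had 2.76 CPM. The AT2 values lay far above all others with no overlap, and the free-RNA level was ordered like the number of AT2 barcodes (6.14, 20.8 and 43.8 CPM). The fit across classes used edgeR's quasi-likelihood test on 8 class-by-library sums, with the library as a block and Benjamini-Hochberg adjustment over 12894 genes. It gave AT2 over endothelial a log2 difference of 6.10 (SE 0.40, adjusted p = 1.02e-05) with TMM scaling and of 5.24 (SE 0.42, adjusted p = 1.97e-05) with total-count scaling. Cox6a2 lies at chr7:128205435-128206387 on the minus strand (GRCm38) and is overlapped on the opposite strand by Itgad, which had 0 counts in every class and library. Its ubiquitous partner Cox6a1 was at 102 and 120 CPM in AT2 barcodes, 188 to 231 CPM in endothelial and 193 to 243 CPM in mural barcodes. For Cox6a1, AT2 over endothelial was -0.83 on the log2 scale with total counts but 0.02 with TMM (not called), so its direction rests on the scaling.

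Cox6b2, known as the testis form of subunit 6b, was at 15.9 and 19.9 CPM in AT2 barcodes and at 24.2, 17.3 and 13.7 CPM in mural barcodes, but at 2.88, 2.78 and 2.81 CPM in endothelial barcodes. Endothelial values lay below both other classes in each library. The edgeR test put endothelial below mural by a log2 difference of -2.59 (SE 0.26, adjusted p = 0.000129). The free-RNA level of Cox6b2 was 27.6, 19.1 and 19.9 CPM. Its ubiquitous partner Cox6b1 was between 222 and 337 CPM in all 3 lung classes. Cox7a1, the muscle form of subunit 7a, was at 2.71 and 3.53 CPM in early and late AT2 barcodes, at 1.61, 0.164 and 1.05 CPM in endothelial and at 3.82, 0.407 and 0.249 CPM in mural barcodes. The edgeR test placed AT2 over endothelial by a log2 difference of 3.97 (SE 0.61, adjusted p = 0.000865), but mural barcodes of the HER2-negative library overlapped AT2, and the 40 AT2 barcodes of that library had a count of 0. The free-RNA level of Cox7a1 was 5.53, 2.47 and 5.07 CPM, near or above its AT2 values. All its values in the lung classes were thus low, at 3.82 CPM or less, and the part of free RNA was not tested. Mammary barcodes had 23.2 CPM of Cox7a1, against 785 CPM of Cox7a2, its ubiquitous partner. Cox4i1, the common form of subunit 4, was between 539 and 692 CPM in all lung classes, Cox8a between 422 and 721, Cox7b between 147 and 195, and Cox7a2l, a supercomplex factor, between 239 and 355. The 3 genes for the c subunit of the ATP synthase rotor, whose mature proteins are known to be identical, were of similar level: in early and late AT2 barcodes Atp5g1 was at 149 and 152 CPM, Atp5g2 at 235 and 242, and Atp5g3 at 156 and 158.

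Ndufa4 was at 541, 468 and 523 CPM in endothelial barcodes and at 345 and 368 CPM in AT2 barcodes, but at 125, 183 and 126 CPM in mural barcodes. No mural value reached an AT2 or endothelial value. Endothelial over mural was a log2 difference of 1.92 (SE 0.18, adjusted p = 8.6e-05, edgeR with TMM), and AT2 over mural 2.23 (SE 0.20, adjusted p = 4.7e-05). With total-count scaling, the scale of the CPM values, these were 1.82 and 1.28. The order of AT2 and endothelial barcodes turned with the scaling, at 0.31 with TMM (not called) and -0.54 with total counts. The paralogue Ndufa4l2 ran opposite in levels, at 1118, 991 and 1354 CPM in mural barcodes and at most 12.3 CPM in endothelial, AT2 and mammary barcodes of each library. Cox4i2, the paralogue of Cox4i1 known for oxygen-dependent use in lung, was at 2632, 1988 and 2817 CPM in mural barcodes and at most 34.7 CPM elsewhere.

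**Figure D2:**
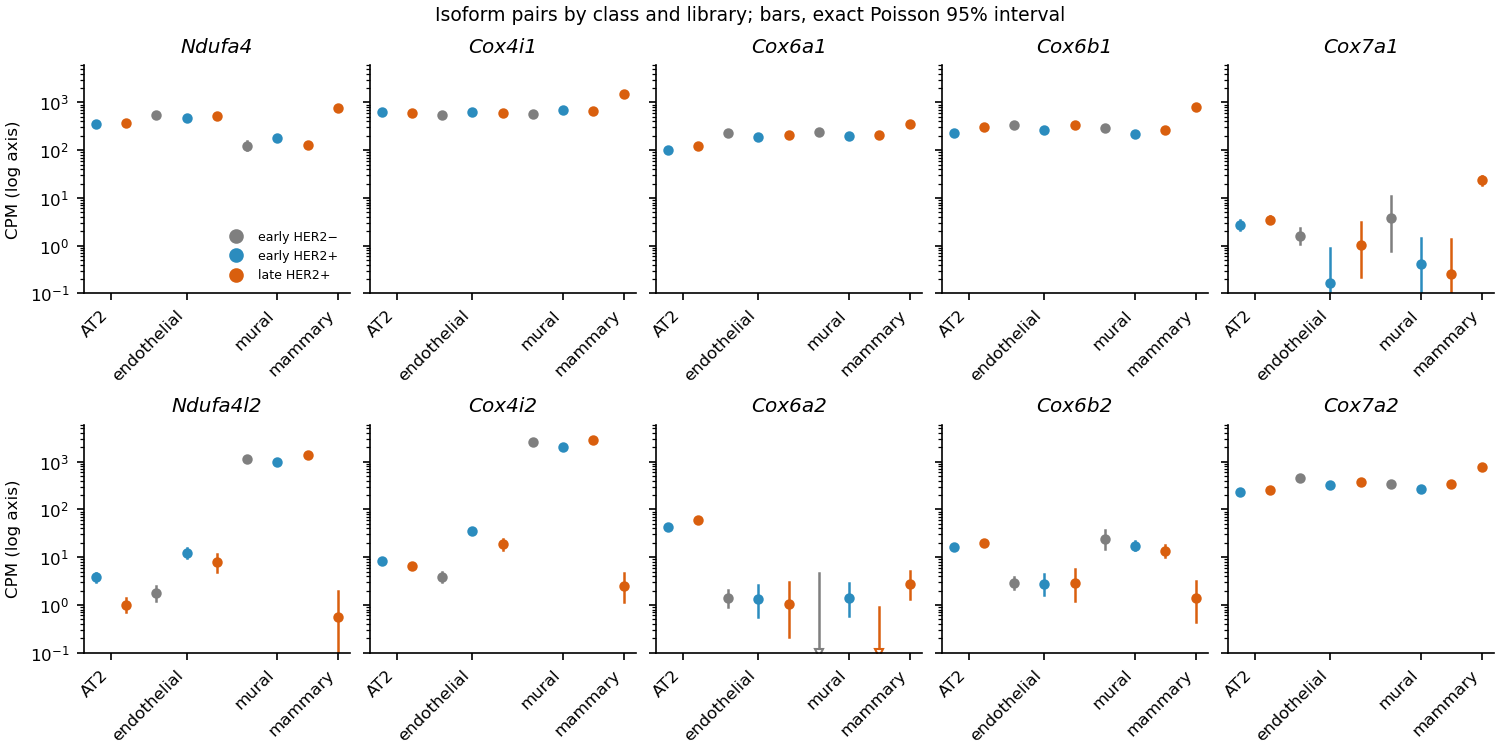
CPM (log axis) of 10 isoform genes in AT2, endothelial, mural and mammary barcodes, coloured by library, with exact Poisson 95% intervals. Open triangles are counts of 0. Cox6a2 stands apart in AT2, Ndufa4l2 and Cox4i2 in mural barcodes, and Ndufa4 is lowest in mural barcodes.

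Within mural barcodes Ndufa4 was very low in those with Higd1b, a pericyte gene. In those with Myh11, the myosin of smooth muscle, it was higher, yet below the endothelial value of each library. This split was chosen after the values had been seen. Barcodes with at least 2 UMIs of Higd1b and none of Myh11 numbered 78, 331 and 287, and barcodes with at least 2 of Myh11 and none of Higd1b 50, 425 and 163. Ndufa4 was at 7.75, 31.5 and 9.65 CPM in the Higd1b barcodes and at 401, 349 and 419 CPM in the Myh11 barcodes. The first of these rests on 2 counts, and the 95% intervals of the ratio were 0.00231 to 0.0719, 0.0604 to 0.130 and 0.0110 to 0.0427. Ndufa4l2 was at 1665, 1801 and 1864 CPM in Higd1b barcodes against 44.0, 124 and 53.8 CPM in Myh11 barcodes. Cox4i2 was at 3761, 3886 and 4081 CPM against 48.4, 146 and 121 CPM, while Cox4i1 stayed at 457, 541 and 591 CPM in Higd1b barcodes, below 792, 852 and 922 CPM in Myh11 barcodes. The same opposition thus stood in all 3 libraries. The members summed to 1.38%, 1.24% and 1.36% of UMIs in Higd1b barcodes and to 1.87%, 1.63% and 1.91% in Myh11 barcodes. All UMIs totalled 258203, 952280 and 1036284 in Higd1b barcodes and 227176, 2020195 and 1040146 in Myh11 barcodes. Myh11 barcodes were thus the deeper per barcode in each library, and the part of depth was not tested.

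Of 75 members with enough counts in the early and late libraries, 14 were at least 1.5-fold lower in Higd1b than in Myh11 barcodes in both, where 14.4% of 5801 genes were. The count of lower members was thus little above the share of all genes. Only Uqcrc1, a core protein of complex III, was at least 1.5-fold higher (17.9% of genes were). Of the 14, 6 are subunits of complex IV or Ndufa4: Cox4i1, Cox5a, Cox5b, Cox6c, Cox7b and Ndufa4. The others were Uqcrh and Uqcr11 of complex III, Atp5e, Atp5g2 and Atp5j2 of complex V, and Ndufb2, Ndufb9 and Ndufs6 of complex I. In the HER2-negative library Cox5b did not follow (159 against 150 CPM). Cox5a, Ndufs6 and Ndufb2 were lower there without passing 1.5-fold (ratios 0.737, 0.693 and 0.680). Among the 14, Cox6c was at 341, 239 and 322 CPM in Higd1b barcodes against 660, 451 and 615 CPM in Myh11 barcodes. The members' median log2 ratio was -0.37, -0.36 and -0.44, and that of all genes tested was 0.12 in the early and 0.14 in the late library. Mural sums of the libraries hold these barcodes in different shares, so mural values mix both kinds.

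Across classes the count of members that passed the test depended on the scaling. With TMM, which sets the bulk of genes level between classes, 64 of 80 tested members were higher in AT2 than in endothelial barcodes and 1 was lower, where 32.7% and 30.4% of all genes were called higher and lower (edgeR, adjusted p under 0.05). With total-count scaling 7 were higher and 33 lower, against 15.5% and 61.7% of genes. The members' median log2 difference was 0.67 with TMM and -0.18 with total counts, and the median of all genes 0.02 and -0.83, so the members lay above the bulk of genes on both scales. Surfactant and milk protein genes made up 26.8% and 26.4% of AT2 UMIs and at most 0.911% of endothelial or mural UMIs. For AT2 over mural, 69 members were higher and none lower with TMM (33.2% and 32.2% of genes), and 7 were higher and 34 lower with total counts (13.8% and 66.5%). The median of members was 0.74 and -0.21, and that of all genes 0.01 and -0.94. For endothelial over mural, 21 were higher and 9 lower with TMM (23.3% and 25.1% of genes), and 15 higher and 14 lower with total counts (20.3% and 29.0%).

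Members called the same way on both scales, which were picked out after their values were seen, are the ones whose direction did not turn with the scaling. For AT2 over endothelial these were Cox6a2, Cox6b2, Cox7a1, Cox6c, Ndufc2, Atp5e and Atp5f1. Each kept its call in every alternative fit that left AT2 both its sums. Total-count scaling is 1 of these fits, and its outcome was fixed by the choice of members. AT2 has 2 sums, so the fits without the early or the late library leave it 1. That sum is assumed to vary like the sums of the other classes, and the calls of those fits are not counted here. Ndufc2, a membrane-arm subunit of complex I, was at 238 and 269 CPM in AT2 barcodes, at 171, 151 and 168 CPM in endothelial and at 132, 127 and 128 CPM in mural barcodes. Its log2 difference was 1.51 (SE 0.11, adjusted p = 1.3e-05, edgeR with TMM) against endothelial and 1.95 (SE 0.11, adjusted p = 4.83e-06) against mural barcodes. With total-count scaling the differences of Ndufc2 were 0.66 and 0.99. Atp5e, the epsilon subunit of ATP synthase, was at 260 and 400 CPM in AT2 barcodes and at 270, 182 and 294 CPM in endothelial barcodes, with a log2 difference of 1.36 (SE 0.11, adjusted p = 2.3e-05, edgeR with TMM) and of 0.51 with total-count scaling. The AT2 value was the higher within the early and within the late library. Sdhb, the iron-sulfur subunit of complex II, was the lone member called lower, at 61.7 and 51.8 CPM in AT2 barcodes against 138, 145 and 106 CPM in endothelial barcodes (log2 -0.32, SE 0.11, adjusted p = 0.0347, edgeR with TMM). With total-count scaling its log2 difference was -1.17, and the call was lost in 4 alternative fits.

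For AT2 over mural the members called higher on both scales were Cox6a2, Cox7a1, Ndufa4, Ndufc2, Ndufb5, Atp5e and Cox5a. Each kept its call in the alternative fits that left AT2 both its sums, with total-count scaling again fixed by the choice. For endothelial over mural, 15 were higher and 9 lower on both scales, of which 9 kept their call in all alternatives. Total-count scaling is 1 of those and was fixed by the choice here too. Sdhb (log2 0.58, SE 0.10, adjusted p = 0.00201), Cox5a (0.59, SE 0.09, adjusted p = 0.00148), Atp5h (0.57, SE 0.10, adjusted p = 0.00244), Ndufa8, Atp5g2 and Ndufa4 were higher in endothelial barcodes. Sdhc, a membrane anchor of complex II, was lower (log2 -0.61, SE 0.12, adjusted p = 0.00414, edgeR with TMM), at 53.1, 54.5 and 49.9 CPM against 70.0, 93.1 and 92.5 CPM in mural barcodes. Cox6b2 was lower too, as given above. Subunits of complex II thus differed in opposite directions between endothelial and mural barcodes.

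**Figure D3:**
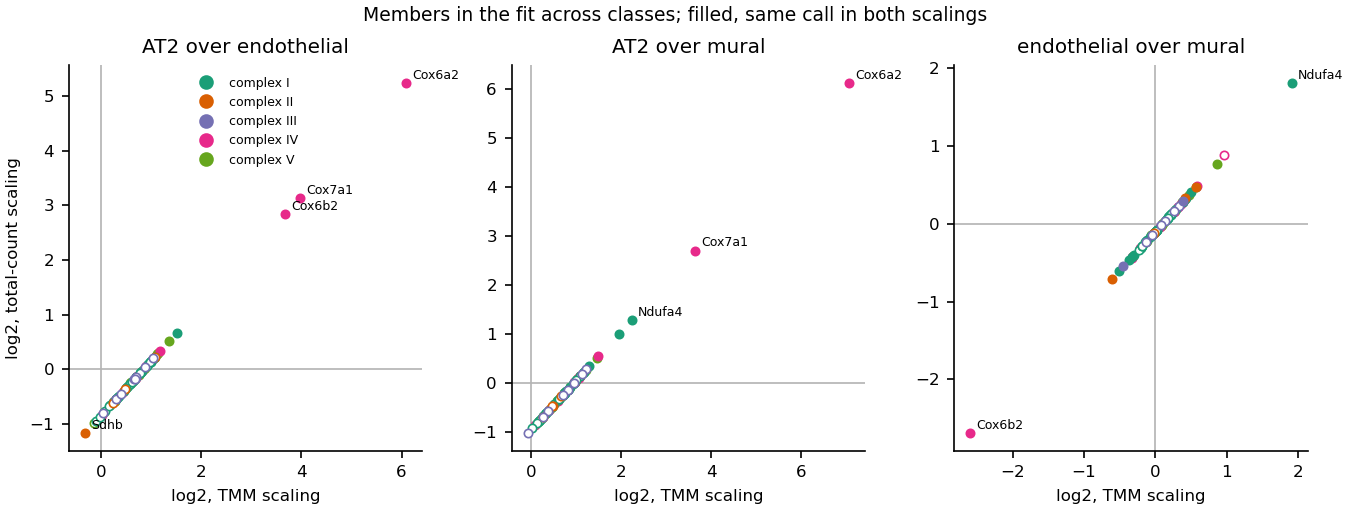
Log2 difference between classes for each tested member, with TMM scaling (horizontal) and total-count scaling (vertical), coloured by complex. Filled points were called the same way on both scales, and Cox6a2, Cox6b2, Cox7a1 and Ndufa4 lie farthest from 0.

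Mammary barcodes of the late library were higher than AT2 barcodes of the same library for nearly every member. At 1.5-fold, 66 of 76 tested members were higher and 1 was lower, where 51.1% and 16.1% of 5299 genes were. The median log2 ratio was 1.15 in members and 0.61 in all genes, and with each side scaled by its median gene 37 members were higher and 2 lower, where 27.5% and 29.5% of genes were. By complex the median was 1.02 for complex I, 0.82 for complex II, 1.28 for complex III, 1.48 for complex IV and 1.33 for complex V, and all 15 tested members of complex V were past the fold. Medians of other genes fell with transcript length, from 1.01 under 600 bases to 0.24 from 4000 bases up, which no member reached. Under 600 bases the median was 1.03 in 25 members, and 21 of them were higher, against 71.7% of 106 other genes. From 600 to 1000 bases 23 of 25 were higher, against 70.8%. Medians were 1.27 in members and 0.88 in other genes from 1000 to 2000 bases, and 1.02 and 0.45 from 2000 to 4000. The part of length was not tested. Since these barcodes came from 1 library, no test was made.

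The 5 highest ratios were of Atp5g1, Uqcrfs1, Atp5c1, Ndufv3 and Cox7c. Atp5g1, a gene for the rotor c subunit, was at 768 CPM in mammary and 152 CPM in AT2 barcodes, a ratio of 5.06 (95% interval 4.83 to 5.30). Its value was 149 CPM in early AT2 barcodes and 171 to 228 CPM in endothelial and mural barcodes, so the mammary value stood above all others. Of the 2 other c subunit genes, Atp5g2 was at 721 CPM in mammary barcodes and Atp5g3 at 435 CPM. Uqcrfs1, the Rieske iron-sulfur protein of complex III, was at 272 CPM against 60.3 CPM (ratio 4.51, 4.18 to 4.86), and Atp5c1, the gamma subunit of the ATP synthase stalk, at 745 CPM against 172 CPM (4.34, 4.14 to 4.54). Ndufv3, an accessory subunit of the NADH-binding module, was at 243 CPM against 61.5 CPM, and Cox7c, a small complex IV subunit, at 960 CPM against 257 CPM. Sdhd, a membrane anchor of complex II, was at 157 CPM against 52.7 CPM (ratio 2.97, 2.70 to 3.27), while Sdha, the flavoprotein of the same complex, was at 91.9 CPM against 79.8 CPM (1.15, 1.03 to 1.29).

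At the other end, Cox6a2 was at 2.76 CPM in mammary barcodes against 60.2 CPM in AT2 barcodes (ratio 0.0458, 0.0219 to 0.0844). Cox7a2l had about the same CPM in both, at 272 and 277 (ratio 0.985, 0.921 to 1.05). The median log2 ratio of all genes was 0.61, so Cox7a2l lay below the bulk of genes, and its equal level rests on the scaling. Ndufb10, an accessory subunit of complex I, was at 212 CPM in mammary barcodes against 162 CPM. Against early AT2 barcodes the 5 lowest members were the same, the median log2 ratio was 1.32, and the highest ratio was that of Sdhd (5.93, 5.30 to 6.65).

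The 13 mitochondrially encoded subunits did not share the nuclear pattern. Their median log2 ratio of mammary over AT2 was -0.15, with none past 1.5-fold higher and 5 past it lower, namely mt-Nd2, mt-Nd3, mt-Nd4l, mt-Nd5 and mt-Atp8. They summed to 8.19% of mammary UMIs and 7.61% of AT2 UMIs. Of 67 tested genes of the mitochondrial ribosome, 58 were at least 1.5-fold higher and 1 lower in mammary barcodes (median 1.14), of 18 assembly factors 15 were higher, and of 13 genes of the tricarboxylic acid cycle 8 were higher and Ogdh was lower (median 0.74). All 5 further genes of the pathway that the prefixes miss were higher, among them Cyc1 (cytochrome c1, a subunit of complex III), Cycs (cytochrome c, the carrier between complexes) and Atpif1 (an inhibitor of ATP synthase). Cyc1 was at 180 CPM in mammary and 79.7 CPM in AT2 barcodes. Cytosolic ribosomal protein genes were 15.9% of mammary UMIs and 7.49% of AT2 UMIs. Mammary barcodes were also the deepest, with a median of 22139.5 UMIs against 8786 in AT2 barcodes. Among barcodes of 8000 to 16000 UMIs the members were 2.58% of UMIs in 27 mammary, 1.37% in 2374 AT2, 1.55% in 95 endothelial and 1.79% in 44 mural barcodes, a comparison added after the values were seen. In the 33 mammary barcodes with at least 3 UMIs of dividing-cell genes the share was 3.47%, and in the other 125 it was 3.11%.

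**Figure D4:**
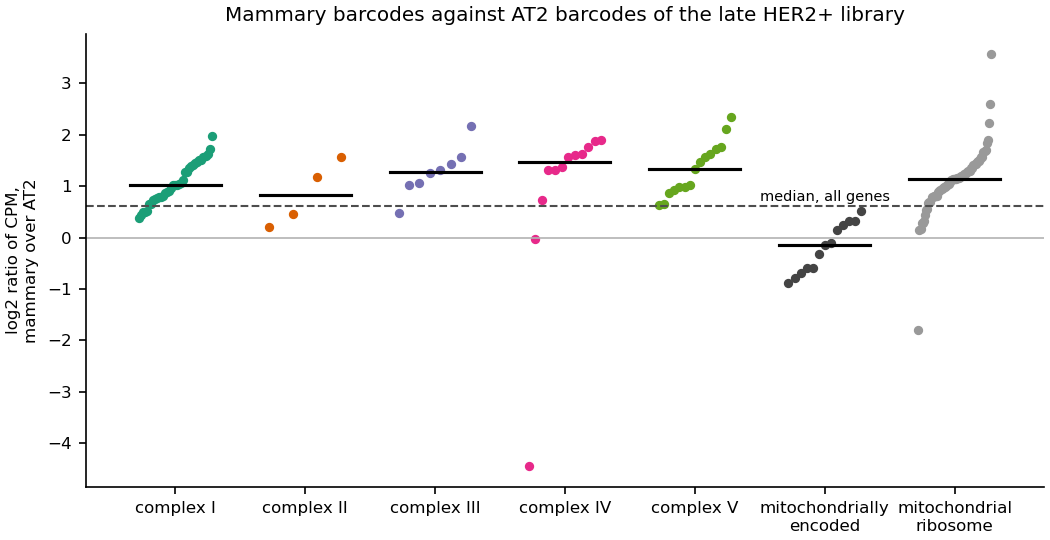
Log2 ratio of CPM, mammary over AT2 barcodes of the late library, for each tested gene. Black bars are group medians and the dashed line is the median of all genes. The 5 complexes and the mitochondrial ribosome have medians above the line, and the mitochondrially encoded subunits a median of -0.15.

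Between the early and late libraries a small set of members was lower in the early one in every lung class. In AT2 barcodes 6 of 76 tested members were at least 1.5-fold lower and none higher, where 0.934% and 0.445% of 4496 genes were. In mural barcodes 5 of 75 were lower and none higher (3.63% and 4.05% of genes), and in endothelial barcodes 7 of 75 were lower and none higher (2.98% and 2.85%). Sdhd, Ndufa1, Ndufa3, Atp5k and Atp5e were lower in all 3 classes. The medians of members were -0.08, -0.07 and -0.08 in AT2, mural and endothelial barcodes, and those of all genes 0.00, 0.00 and 0.05.

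Ndufa1, an X-linked accessory subunit of the complex I membrane arm, stood at 46.0 CPM (early) and 85.5 CPM (late) in AT2 barcodes, at 51.7 and 105 CPM in mural barcodes and at 52.7 and 95.2 CPM in endothelial barcodes. In the HER2-negative library it was at 92.9 CPM in mural and 86.0 CPM in endothelial barcodes, so the early library stood alone as low. Atp5k, subunit e of ATP synthase, was at 23.9 and 43.8 CPM in early and late AT2 barcodes, 22.0 and 42.5 CPM in mural and 28.2 and 48.5 CPM in endothelial barcodes, and at 72.6 and 69.6 CPM in mural and endothelial barcodes of the HER2-negative library. Ndufa3, another membrane-arm subunit of complex I, was at 27.1 and 46.2, 23.6 and 38.0, and 23.7 and 44.96 CPM in the same classes, and at 56.0 and 53.8 CPM in mural and endothelial barcodes of the HER2-negative library. The free-RNA barcodes showed the same order of libraries, with Ndufa1 at 91.5, 45.2 and 101 CPM.

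Sdhd had another pattern. It stood at 26.4 CPM (early) and 52.7 CPM (late) in AT2 barcodes (ratio 0.501, 0.458 to 0.548), at 34.8 and 59.9 CPM in mural barcodes and at 43.0 and 74.8 CPM in endothelial barcodes. The HER2-negative library had 29.3 CPM in mural and 38.2 CPM in endothelial barcodes, near the early values, so the late library stood alone as high. Free-RNA barcodes had 29.5, 25.4 and 56.1 CPM. The other complex II members did not follow: Sdhb was higher in the early library in all 3 classes without passing 1.5-fold, at 61.7 and 51.8 CPM in AT2, 101 and 85.5 CPM in mural and 145 and 106 CPM in endothelial barcodes. Other members at the high end were Ndufs7, Uqcrc1 and Uqcrc2, with at most 1.35-fold, and Ndufa4 in mural barcodes (183 against 126 CPM), a gene that differs between the kinds of mural barcode above.

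Between the 2 libraries of young mice, several small subunits were higher in HER2-negative cells. In endothelial barcodes 8 of 75 members were at least 1.5-fold higher than in the early library and none lower, where 2.08% and 2.91% of 6388 genes were. In mural barcodes 12 of 76 were higher and none lower, where 6.99% and 6.31% of 6692 genes were. All 8 were among the 12: Atp5k, Ndufa3, Ndufb2, Uqcr11, Cox7c, Ndufc1, Ndufa1 and Ndufa5. The other 4, Atp5e, Atp5j2, Ndufa2 and Uqcr10, passed in mural barcodes alone. The ratio of Atp5k was 2.47 (2.11 to 2.92) in endothelial and 3.30 (2.35 to 4.59) in mural barcodes. Uqcr11, a small subunit of complex III, was at 275 against 157 CPM in endothelial and 244 against 142 CPM in mural barcodes. The low end held Cox7a2l in endothelial barcodes (239 against 355 CPM) and Ndufa4 in mural barcodes (125 against 183 CPM), neither past the fold. The early library is on one side of all 5 comparisons, so they are not independent of each other.

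Transcript length moved with these differences. The median protein-coding transcript was under 600 bases for 30 members and longer for 53. Over 75 or 76 members, Spearman's rho between length and the log2 ratio of early over late was 0.52 in AT2, 0.47 in mural and 0.63 in endothelial barcodes, and between length and the ratio of HER2-negative over early it was -0.52 in endothelial and -0.49 in mural barcodes. These are descriptions over genes that share their libraries. In AT2 barcodes the median log2 ratio of early over late was -0.26 in 25 members under 600 bases and -0.07 in 25 members of 600 to 1000 bases, and in 98 other genes under 600 bases it was -0.22. In endothelial barcodes the HER2-negative over early median was 0.31 in members and 0.25 in 95 other genes under 600 bases. Of 25 members that short, 5, 4 and 6 were at least 1.5-fold lower in early AT2, mural and endothelial barcodes. Of other genes that short, 10.2%, 16.2% and 22.2% were. For HER2-negative over early, 6 of 25 in endothelial and 9 of 26 in mural barcodes were higher, against 24.2% and 32.7% of other genes. Except in AT2 barcodes, these counts were near the share of other short genes. Over all genes tested rho was near 0 and of the other sign, at -0.04, -0.06 and -0.04 for early over late and 0.15 and 0.06 for HER2-negative over early. Outside the members, only the genes under 600 bases thus had medians that moved as the short members did, as the plot of ratio against length shows. Sdhd, at 1231 bases, and Ndufb2, at 2413 bases (a median over its transcripts), lay outside this pattern. So did Ndufc1, at 782 bases, and, in mural barcodes, Atp5j2, at 747.5 bases, for HER2-negative over early. The part of transcript length in these differences was not tested further.

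**Figure D5:**
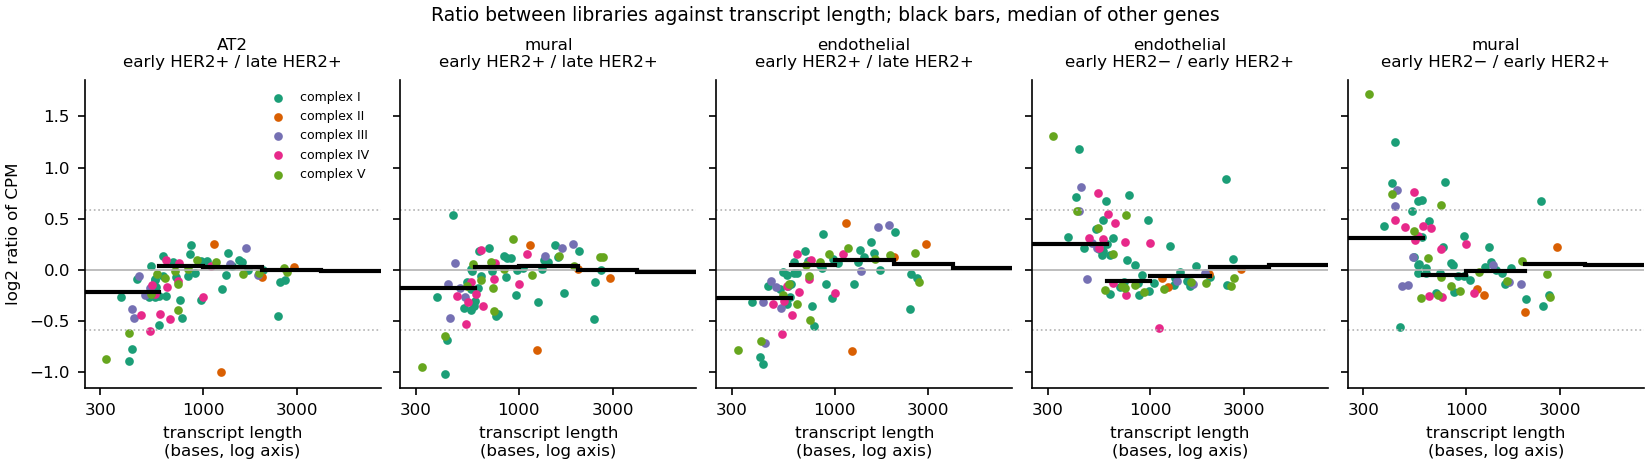
Log2 ratio of CPM between libraries (vertical) against median transcript length in bases (log axis) for each tested member, coloured by complex, in 5 comparisons. Black bars are the medians of other genes in length bins and dotted lines mark 1.5-fold. The medians of members under 600 bases were -0.26, -0.27 and -0.29 for early over late and 0.31 and 0.39 for HER2-negative over early.

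Other genes of the pathway were listed apart from the members. Usmg5, a small ATP synthase subunit that the prefixes miss, was at 42.2 and 71.3 CPM in early and late AT2 barcodes, 42.8 and 70.8 CPM in mural and 45.5 and 71.3 CPM in endothelial barcodes, and at 77.7 and 92.2 CPM in mural and endothelial barcodes of the HER2-negative library. Of the 13 mitochondrially encoded subunits, mt-Nd3 was the one past 1.5-fold lower in the early library in each class. It was at 435 and 1066 CPM in AT2, 252 and 543 CPM in mural and 256 and 573 CPM in endothelial barcodes. No tricarboxylic acid cycle gene of the 13 tested passed 1.5-fold between the early and late libraries in any class. Of 57, 67 and 66 tested genes of the mitochondrial ribosome, 1, 2 and 2 were lower and none higher in AT2, mural and endothelial barcodes. Regulators such as Tfam, a factor for mitochondrial DNA, had few counts: 1, 4 and 5 of 12 could be compared in AT2, mural and endothelial barcodes, and none passed the fold.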

How the data were processed

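The authors deposited, per the file headers and values, unnormalised counts of UMIs per gene and barcode, 27998 genes by 6794880 barcodes per library, not filtered to cells, with software version 3.1.0 in their header lines. The chemistry is Chromium 3' version 3 per the labels' protocols, and the submitters' processing notes name mm10 as the build. No aligner or annotation is given in the sources used here, nor whether strand was used or how reads shared with processed pseudogenes were counted. On GRCm38, 37 members are overlapped by another gene, 29 of them on the opposite strand. Total counts per library were 25610135, 49248126 and 54961019.

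Members, gene lists and the rule for named genes were chosen with earlier results of these data known. Named members were the 5 highest and 5 lowest ratios of each comparison, Ndufa1, Sdhd and the isoform groups; members called on both scales and the 2 kinds of mural barcodes were picked out after their values were seen. Barcodes that met several class rules (619) or none (2254) were left out, no doublet caller was run. Counts were summed per class and library where at least 50 barcodes were present. The fit across classes used edgeR 4.0.16 in R 4.3.3 (quasi-likelihood, filterByExpr, TMM, the library as a block, 3 residual degrees of freedom), called at an adjusted p under 0.05. It was first run on simulated counts with as many genes raised as lowered and no library effect. Such counts cannot test calls that turn with the scaling. DESeq2 1.42.0 was an alternative. Sums of different classes in a library share the library, whose own level the block takes out. The p-values thus measure only how class differences vary from library to library, and the libraries differ in sort or stage. Between libraries there was no test: genes with a mean of at least 20 CPM and at least 50 summed counts were compared at 1.5-fold. Poisson intervals for CPM, conditional intervals for ratios and Clopper-Pearson intervals for shares are at 95% and cover counting error only. Lengths and positions are from GENCODE on GRCm38, starts from RefSeq. The alternatives were other scalings, totals, floors, folds and barcode rules, equal weight per cell, and leaving out each library from the fit. A member that the rule for named genes would give is not reported here.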

Additional observations from a re-analysis of the deposited data

How the results depend on the processing

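In the fit across classes, total-count scaling, chosen after seeing that TMM factors were 0.630 and 0.615 in AT2 sums and at least 1.11 in the others, turned the balance: 7 members higher and 33 lower for AT2 over endothelial, 7 and 34 for AT2 over mural, and 14 lower for endothelial over mural, with medians of -0.18, -0.21 and -0.016 in place of 0.67, 0.74 and 0.09. It lowered the median of all genes from 0.02 to -0.83, from 0.01 to -0.94 and from -0.03 to -0.13. Without the filter, and without the library term, 0 members were lower for AT2 over endothelial, and without the library term 11 were higher for endothelial over mural. With barcodes of several classes kept, 4 were lower there. Leaving out each library in turn gave 0 to 1 lower for AT2 over endothelial, and 9 to 16 higher and 3 to 7 lower for endothelial over mural. Without the early HER2-positive library these were 0, 9 and 3, and without the late library 0, 14 and 4. The labels carry no replicate numbers, and the library is the pairing in this fit.

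Between libraries, a lower fold threshold gave 15, 15 and 16 members lower in early AT2, mural and endothelial barcodes (5.05%, 12.2% and 8.63% of genes), and 1 higher in mural and 5 in endothelial (11.5% and 12.4%). In HER2-negative endothelial barcodes it gave 18 higher and 1 lower (10.7% and 9.36% of genes), and in mural barcodes 23 and 3 (20.7% and 16.1%). Members of at least 600 bases alone gave 1 lower in each of the first 3, and 2 and 3 higher in the others. Of other genes in length bins from 600 bases up, 0.426% to 1.41%, 2.80% to 4.81% and 2.22% to 4.21% were lower, and 1.16% to 3.01% and 4.81% to 6.78% higher, so these counts are near the background in most. For mural early over late, 1 was higher by mean CPM per cell and under the stricter class rule. For HER2-negative endothelial barcodes, 1 was lower by mean CPM per cell and with the reduced total, and for mural barcodes 1 was lower with median-ratio scaling, the reduced total and the stricter rule. For mammary over AT2, median-ratio scaling gave 37 higher and 2 lower (27.5% and 29.5% of genes), and a floor of 10 counts gave 2 lower. Of the alternative values of named ratios, 431 stayed within the counting interval and 24 left it. None turned among members past the fold, and a turn was not counted for members under it. Median-ratio scaling takes 0.61 off each log2 ratio of mammary over AT2. A member with a smaller ratio, such as Sdha (0.20), thus does turn.

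Depth limits members under 20 CPM, and the 210 mural barcodes of the early HER2-negative library gave the widest intervals. Intervals understate the error where barcodes of a library differ.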
